A study of Homo sapiens with 5 samples.

Results

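The proteins of the cytosolic ribosome are encoded by one of the most abundant groups of messenger RNAs in a growing cell. Their levels were examined here in MCF10A SAM cells with and without activation of the endogenous JUN gene. MCF10A is an immortalised human mammary epithelial line. SAM cells are derivatives, picked as single clones, that carry dCas9-VP64 and MCP-p65-HSF1, a catalytically dead Cas9 and an RNA-binding protein that bring transcriptional activators to the site chosen by a guide RNA. Both groups carried these components. The control group had been infected with a non-targeting control guide (NTC, 3 libraries) and the other group with sgJUN#1, a guide against the JUN promoter (2 libraries). The question behind the comparison was how JUN overexpression changes gene expression. The genes were taken by name from the 23459 genes of the count table: every protein-coding gene named RPL or RPS with a number, plus RPSA, RPLP0, RPLP1, RPLP2 and FAU. The S6 kinase genes, RPS19BP1, RPSA2 and all pseudogenes were left out. This gave 90 genes, of which 77 were the standard components (46 of the large and 31 of the small subunit), 8 were close paralogs, 2 were Y-linked copies and 3 were readthrough loci that join a ribosomal protein gene to its neighbour.

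A ribosome holds one copy of nearly every ribosomal protein, so cells make these proteins in matched amounts. Most of their mRNAs begin with a 5′ terminal oligopyrimidine (5′ TOP) tract, a C at the first transcribed base followed by an unbroken run of C and T, through which mTOR and LARP1 control their translation together. That control acts on the use of the mRNA, whereas the libraries described here count mRNA molecules. Ribosome production is raised by growth signals such as MYC and mTOR, and JUN is a growth-factor-responsive transcription factor of the AP-1 family, which binds the TGANTCA element.

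The 5′ TOP tract was read from the RefSeq promoter sequences of build GRCh38.p14 for those genes on which the results below turn. Each line gives the 20 bases before and the 16 bases after an annotated start of transcription on the gene's own strand. Where a gene had several annotated starts, a start with the tract was shown if any had it. Capitals mark the run of C and T that opens at the start with a C and goes on for at least 4 more pyrimidines, and a line without capitals has no such start. RPL12, RPS18, RPL10A, RPS3, RPLP0 and RPL19 were among the genes with the most positive or most negative fold changes, RPS27A had the highest level, RPS6 and RPL11 are well-known regulatory members, and the last lines set 2 genes beside their paralogs.

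RPL12: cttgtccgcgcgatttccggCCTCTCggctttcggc
RPS18: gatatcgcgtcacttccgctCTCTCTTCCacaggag
RPL10A: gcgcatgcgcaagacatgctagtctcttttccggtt
RPS3: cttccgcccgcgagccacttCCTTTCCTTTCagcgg
RPLP0: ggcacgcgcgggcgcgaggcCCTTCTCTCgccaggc
RPL19: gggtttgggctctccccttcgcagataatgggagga
RPS27A: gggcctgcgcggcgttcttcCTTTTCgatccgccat
RPS6: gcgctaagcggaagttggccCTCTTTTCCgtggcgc
RPL11: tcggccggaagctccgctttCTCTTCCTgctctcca
RPL22: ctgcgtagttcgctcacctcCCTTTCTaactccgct
RPL22L1: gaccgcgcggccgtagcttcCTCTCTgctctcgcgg
RPL26: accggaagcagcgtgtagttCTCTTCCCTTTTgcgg
RPL26L1: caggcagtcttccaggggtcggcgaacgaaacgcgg

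The RPL12 window lies at chr9:127451391-127451426 on the minus strand, that of RPS3 at chr11:75399498-75399533 on the plus strand, that of RPLP0 at chr12:120201096-120201131 on the minus strand and that of RPL19 at chr17:39200263-39200298 on the plus strand, all in GRCh38.p14. Of the 63 standard genes with a promoter entry, 47 (74.6%) opened with such a tract, against 7.34% of the 10867 tested genes with an entry. In every set a gene counted if any of its annotated starts had the tract. The tracts were 5 to 19 bases long, with a median of 8. RPL10A and RPL19 were among the 16 without a tract that opened exactly at an annotated start. Their lines hold a run of C and T just after (RPL10A) or just before (RPL19) that base. The count thus depends on where starts are annotated, and these 16 genes are not shown to lack a tract. Among the 6 paralogs with an entry RPL22L1 alone had a tract by this rule. Mitochondrial ribosomal protein genes, which serve the other ribosome of the cell, carried it in 6 of 69 entries (8.70%).

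JUN itself, the activated gene, was counted 91, 89 and 42 times in the NTC libraries and 831 and 742 times in the sgJUN#1 libraries, so the library labels hold for the targeted gene. Its log2 fold change was 3.25 ± 0.48 (SE), with an adjusted p of 0.0733 in edgeR's quasi-likelihood test with Benjamini-Hochberg adjustment over all tested genes. JUN passed that threshold with DESeq2 (adjusted p = 7.36e-12) and limma-voom (adjusted p = 0.0342) but not in edgeR without a filter (adjusted p = 0.218) or without NTC replicate 1 (adjusted p = 0.279). Over all alternatives its adjusted p from these tools reached 0.322 and its log2 fold change stayed between 2.82 and 3.68. The libraries held 2455627 to 4988062 counts. The study calls its replicates biological. A figure legend gives 2 for this comparison, and the methods give 3 per condition for all its RNA sequencing. By the labels there are 3 NTC and 2 sgJUN#1 libraries, all of which were used. No source says that each library came from a separate culture, so p-values measure the spread between these libraries. Epithelial markers took 0.114 to 0.180% of counts in NTC and 0.275 and 0.134% in sgJUN#1, and all 12 were detected well enough to be tested. Of these 12, 8 had positive and 4 had negative log2 fold changes. EPCAM had the most positive (2.44, edgeR adjusted p = 0.210). KRT14, with 4 to 13 counts per library, had the most negative (-1.16, edgeR adjusted p = 0.660). Of 10 markers of other cell types, CD3E and ALB stood at 0 in every library. DCN, VWF and CD68 had enough counts to be tested, with 65 to 396, 16 to 40 and 14 to 55 counts per library. Their log2 fold changes were -0.30, -0.003 and 1.26 (edgeR adjusted p = 0.416 for CD68). The 10 markers together took 0.00359 to 0.0107% in NTC and 0.00485 and 0.00763% in sgJUN#1. The nuclear RNAs MALAT1 and NEAT1 took 0.607 to 1.16% in NTC and 1.19 and 0.779% in sgJUN#1. The part of these differences in the results below was not tested.

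In the cells with activated JUN, ribosomal protein mRNAs stayed within a narrow band around their control levels. Of the 90 genes, 86 had enough counts to be tested, and the other 4 (RPL3L, RPL10L and both Y-linked copies) did not. No ribosomal protein gene passed an adjusted p of 0.05 in edgeR in either direction, where 28 of all 13616 tested genes did (0.206%). At an unadjusted p of 0.05 the count was again 0 of 86, against 8.38% of all tested genes, and DESeq2 called 0 of 86 at both levels while it called 0.975% of all its tested genes at the adjusted level. The log2 fold changes (sgJUN#1 over NTC) had a median of 0.004, with 44 positive and 42 negative, and the median over all tested genes was -0.008. They ran from -0.31 for RPS3 to 0.39 for RPL12, and their interquartile range was -0.12 to 0.12. In bulk RNA a lower count can mean fewer cells with the mRNA or less of it in each cell, and these cannot be told apart. Counts are also relative to each library's total, so a change in the total amount of mRNA per cell would not be seen.

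The fold changes of ribosomal protein genes had an SD of 0.159 on the log2 scale, against 0.513 over all tested genes. Most other genes were counted far less often (median level 28.0 CPM, a count scaled to its library's total, against 604 CPM for the 86), and the SD of a fold change grows as counts fall. The 42 ribosomal protein genes between the lower and upper quartile of the group's levels were therefore set beside the 480 other genes in that range of levels, a choice made after seeing the data. The SD was 0.170 for the 42 genes (median level 604 CPM) and 0.586 for the 480 (median level 411 CPM, so still lower). The 480 ran from -5.18 to 2.27, and such far values raise an SD. The interquartile ranges differed less, at -0.071 to 0.129 for the 42 and -0.165 to 0.188 for the 480. All 42 fold changes were smaller than 0.4 in either direction, and 81.0% of the 480 were. A limit of 0.2 held 31 of the 42 (73.8%) and 54.8% of the 480. The median SD between libraries of the same group was 0.137 on the log2 CPM scale for the 42 genes and 0.228 for the 480. These are descriptions, since the members of one complex are not independent of one another.

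**Figure D1:**
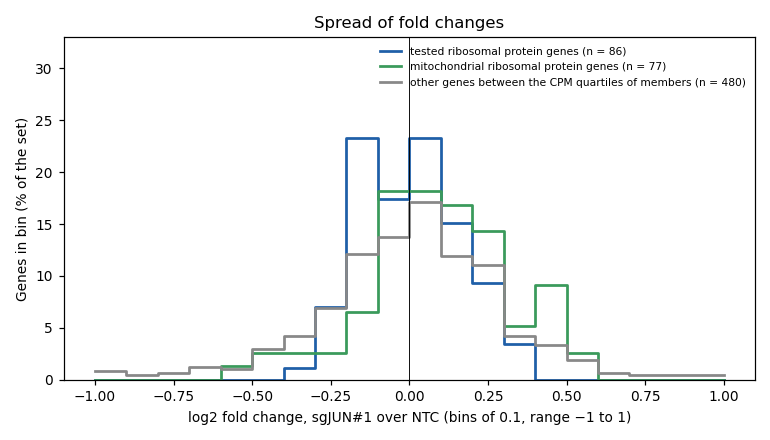
Distribution of log2 fold changes (x axis, bins of 0.1 between -1 and 1) for the 86 tested ribosomal protein genes, the 77 mitochondrial ribosomal protein genes and the 480 other genes between the quartiles of the ribosomal protein levels, as the percentage of each set (y axis). All ribosomal protein genes lay between -0.31 and 0.39, and the other genes reached beyond both ends of that range. The mitochondrial genes had lower counts, with a median level of 56.5 CPM.

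A miss of the threshold does not show equal levels, so the 95% intervals of the fitted fold changes were read as well. All 86 intervals lay within a doubling and a halving (between -1 and 1 on the log2 scale), against 59.4% of all tested genes. Between the quartiles of the ribosomal protein levels it was 42 of 42, against 83.1% of the 480 other genes. The lowest bound of any gene was -0.78 (RPS3, 0.584-fold) and the highest was 0.85 (RPL12 and RPL39L, 1.81-fold). Within those bounds a difference could not be told from none with 3 and 2 libraries.

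**Figure D2:**
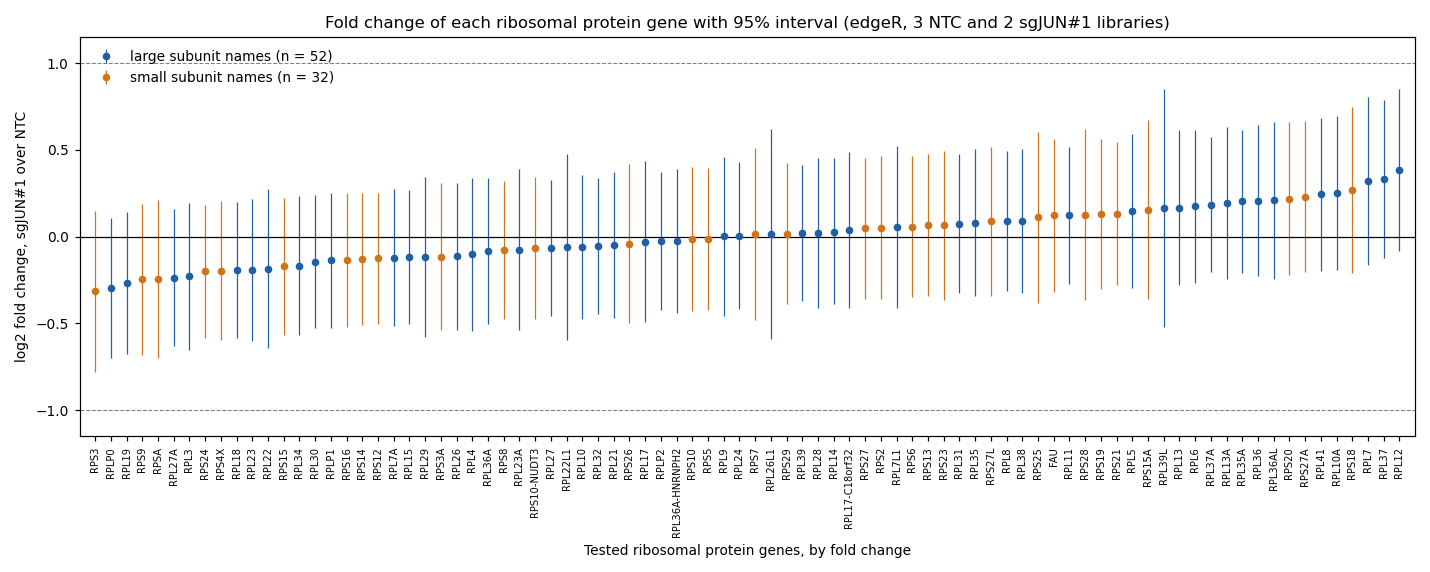
Log2 fold change of sgJUN#1 over NTC (y axis) for 84 of the 86 tested ribosomal protein genes (x axis, in order of fold change), with points for the edgeR estimate, bars for its 95% interval, blue for 52 large subunit names and orange for 32 small subunit names. All intervals drawn crossed 0 and stayed between the dashed lines at -1 and 1.

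The 53 large subunit genes had a median log2 fold change of 0.002 and the 33 small subunit genes one of 0.015, a difference that was not tested. With 1 library left out the medians ranged from -0.04 to 0.08 for the large and from -0.10 to 0.08 for the small subunit. Large subunit genes took 4.22, 3.79 and 3.89% of all counts in NTC and 4.02 and 3.89% in sgJUN#1. Small subunit genes took 3.19, 3.02 and 2.98% in NTC and 3.13 and 2.93% in sgJUN#1. The ratio of large to small subunit counts was 1.32, 1.26 and 1.30 in NTC and 1.28 and 1.33 in sgJUN#1, so the groups overlapped. All 90 genes together made up 7.41, 6.81 and 6.88% of the counts in NTC (7.03% ± 0.33, SD, n = 3) and 7.15 and 6.82% in sgJUN#1 (6.98% ± 0.23, SD, n = 2). The difference of -0.046 percentage points was smaller than the SD within either group, it ranged from -0.211 to 0.142 points with 1 library left out, and both sgJUN#1 values lay inside the NTC range. This sum counts reads of the readthrough loci more than once. Without those loci it was 6.96% ± 0.33 (SD, n = 3) and 6.91% ± 0.23 (SD, n = 2).

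**Figure D3:**
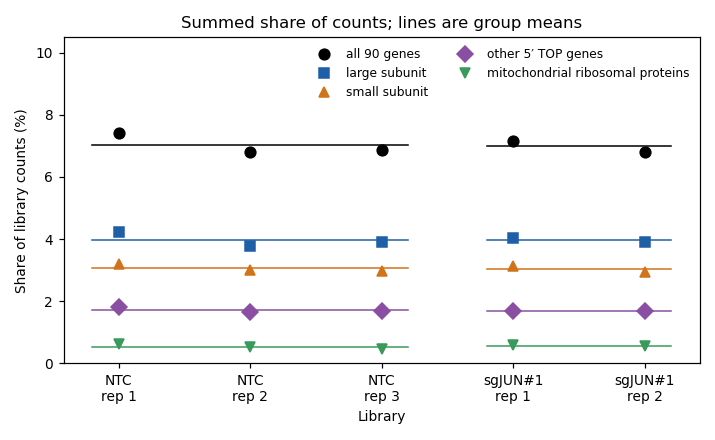
Share of each library's counts (y axis, %) taken by all 90 ribosomal protein genes, by each subunit, by 21 other 5′ TOP genes and by 77 mitochondrial ribosomal protein genes, for each of the 5 libraries (x axis), with horizontal lines at the group means. The all-gene share ran from 6.81 to 7.41%, with NTC replicate 1 the highest.

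Levels are given in CPM after TMM scaling. QuantSeq makes its tags at the 3′ end, whatever the size of the transcript. CPM was therefore not divided by transcript length, and levels of different genes were compared on that scale. RPS27A, which encodes ubiquitin fused to a small subunit protein, was the most abundant, at 4460, 3556 and 3240 CPM in the NTC libraries, against 4754 and 4055 CPM after JUN activation. It was followed by RPL13A (mean over libraries 3022 CPM), RPL37A (2645 CPM), RPS29 (2573 CPM) and RPL26 (2181 CPM). The ranges over the 5 libraries overlapped for every neighbouring pair in this order. At the other end of the standard genes RPS26, a small subunit protein at the mRNA exit, had a mean of 43.96 CPM. The counted levels of the 77 standard genes thus spanned a wide range, although their proteins are needed in matched amounts. Near-identical copies can share reads with these genes, as given below for RPS26 and RPSA. How much of the range comes from such sharing was not tested. Over the 77 genes the log2 level had a Pearson r of -0.30 and a Spearman rho of -0.14 with the number of annotated pseudogenes. Of these RPL21 has 133, RPL23A 87, RPL7A 80 and RPSA 74. Their mean levels differed, at 84.1 CPM for RPL21, 489 CPM for RPL23A, 1314 CPM for RPL7A and 107 CPM for RPSA. The genes share their libraries, and this is a description only.

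RPL12 had the largest positive fold change. It encodes a protein at the base of the ribosomal stalk, where elongation factors bind. Its level was 532, 383 and 391 CPM across NTC replicates 1 to 3, and the sgJUN#1 libraries had 599 and 538 CPM. The sgJUN#1 libraries were above all NTC libraries, although the lower of them was close to NTC replicate 1. This gave a log2 difference of 0.39 ± 0.21 (SE, edgeR), with a 95% interval of -0.08 to 0.85 and an adjusted p of 0.672. RPL37, another large subunit protein, stood at 825, 609 and 596 CPM without and 851 and 852 CPM with the JUN guide. Again NTC replicate 1 was close to the sgJUN#1 libraries and the other NTC libraries were lower (log2 fold change 0.33 ± 0.20, SE, edgeR adjusted p = 0.716). RPL7 had 269, 198 and 190 CPM in the NTC libraries, against 291 and 255 CPM after JUN activation. RPS18, in the head of the small subunit, had 448, 315 and 315 CPM across NTC replicates 1 to 3, and the sgJUN#1 libraries had 431 and 435 CPM. RPL10A, which forms the mobile L1 stalk, had 940, 748 and 674 CPM without and 964 and 911 CPM with the JUN guide. In these last 3 genes NTC replicate 1 lay between or above the sgJUN#1 libraries, so the groups overlapped. Their log2 fold changes were 0.32, 0.27 and 0.25.

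RPS3 had the most negative fold change. The protein sits where the mRNA enters the small subunit and has also been linked to DNA repair. It was counted at 898, 1186 and 1275 CPM in the NTC libraries, against 957 and 844 CPM after JUN activation. NTC replicate 1 fell between the sgJUN#1 libraries (log2 fold change -0.31 ± 0.21, SE, edgeR adjusted p = 0.744). RPLP0, the core protein of the stalk, had 952, 817 and 941 CPM across NTC replicates 1 to 3, and the sgJUN#1 libraries had 754 and 718 CPM. Here the groups did not overlap (log2 fold change -0.30 ± 0.18, SE, edgeR adjusted p = 0.711). RPLP0 is a common reference gene in RT-qPCR, and its 95% interval was -0.70 to 0.11. The proteins that RPLP0 carries in the stalk had smaller differences, with a log2 fold change of -0.14 for RPLP1 and -0.03 for RPLP2. RPL19 stood at 1082, 1101 and 1138 CPM without and 1019 and 823 CPM with the JUN guide (log2 fold change -0.27). RPS9 stood at 198, 191 and 229 CPM in the NTC libraries, against 184 and 164 CPM after JUN activation (-0.25). RPSA, a small subunit protein also known as a laminin receptor, stood at 131, 105 and 106 CPM across NTC replicates 1 to 3, and the sgJUN#1 libraries had 103 and 89.8 CPM (-0.24). In RPL19, RPS9 and RPSA every sgJUN#1 library was below every NTC library, and none of these genes passed the test.

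Across the 86 genes, 19 had groups that did not overlap (22.1%), against 25.0% of all tested genes. RPL12 and RPL37 were the 2 that were higher in sgJUN#1 (2.33% of the members, against 12.2% of all tested genes). The other 17 were lower (19.8%, against 12.8% of all tested genes). Beside RPLP0, RPL19, RPS9 and RPSA, the lower ones included RPL27A, RPL3, RPS24, RPL18, RPL23, RPS15, RPL30, RPS16, RPS14, RPS12 and RPL15, with log2 fold changes from -0.24 to -0.12. RPL3, which lies next to the centre where peptide bonds form, stood at 297, 268 and 325 CPM without and 253 and 254 CPM with the JUN guide. RPS24 stood at 2010, 2151 and 2314 CPM in the NTC libraries, against 1918 and 1841 CPM after JUN activation. These separations were small, and none of the 17 genes had an unadjusted p under 0.05 in edgeR. The genes were not independent of one another, and the split between higher and lower was not tested.

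Differences among the NTC libraries were as large as those between the groups. Over the 86 genes the median absolute log2 difference was 0.229 between NTC replicates 1 and 3, 0.193 between NTC replicates 1 and 2, and 0.085 between NTC replicates 2 and 3. It was 0.137 between the sgJUN#1 libraries. Between groups it ran from 0.083, for NTC replicate 1 with sgJUN#1 replicate 1, to 0.191, for NTC replicate 3 with sgJUN#1 replicate 1. Relative to the NTC mean, the median ribosomal protein gene stood at 0.13, -0.07 and -0.08 in the NTC libraries and at 0.04 and -0.05 in the sgJUN#1 libraries (log2). NTC replicate 1 was thus the highest of all 5 libraries for these genes. Without it the median log2 fold change was 0.07 and 6 genes had an unadjusted p under 0.05 in edgeR, namely RPL12 (0.55), RPL37 (0.50), RPL7 (0.49), RPS18 (0.46) and RPL10A (0.40) with positive and RPS3 (-0.45) with negative log2 fold changes. Their lowest edgeR adjusted p was 0.438, so 0 ribosomal protein genes were called in that fit either. The share of all tested genes with an unadjusted p under 0.05 was not taken for that fit. It was 8.38% in the edgeR fit to all 5 libraries, so 6 of 86 is not read as a result.

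**Figure D4:**
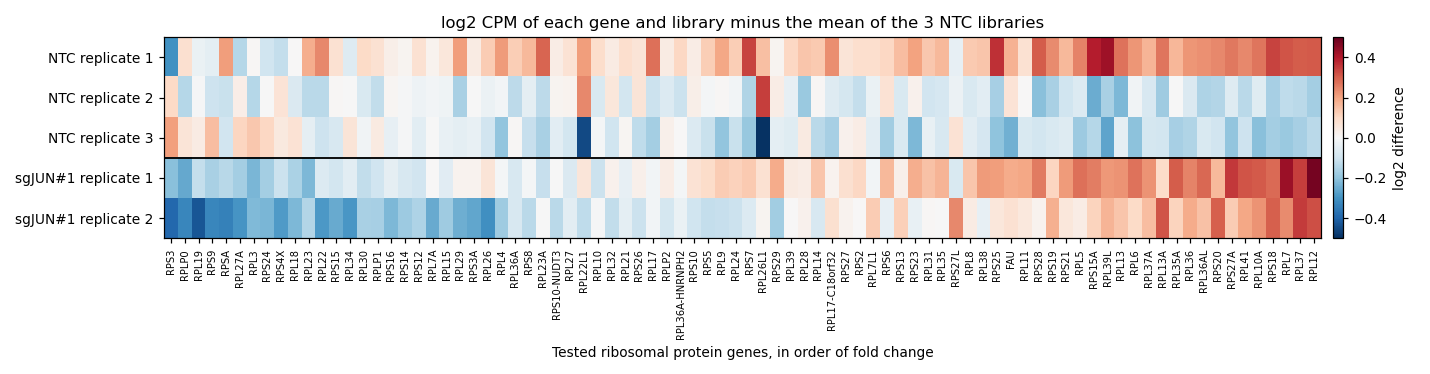
Log2 CPM of 84 of the 86 tested ribosomal protein genes (x axis, in order of fold change) in each of the 5 libraries (y axis), minus the mean of the 3 NTC libraries; red is higher and blue is lower, and the line separates the groups. NTC replicate 1 is mostly red, with a median of 0.13, and NTC replicates 2 and 3 are mostly pale blue, with medians of -0.07 and -0.08.

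Some members are also known for roles in regulation. RPS6, the target of the S6 kinases, stood at 1961, 1920 and 1617 CPM across NTC replicates 1 to 3, and the sgJUN#1 libraries had 2045 and 1774 CPM (log2 fold change 0.06). RPL5 and RPL11 hold back MDM2 and so raise p53 when ribosome assembly fails. RPL11 stood at 797, 759 and 717 CPM without and 865 and 785 CPM with the JUN guide (0.12), and RPL5 had a log2 fold change of 0.15. FAU, made as a fusion with a ubiquitin-like protein, stood at 507, 471 and 381 CPM in the NTC libraries, against 512 and 474 CPM after JUN activation (0.12). In all 4 genes the groups overlapped.

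Paralogs were read against the gene they resemble, as a log2 ratio of counts in each library. RPL22L1 exceeded RPL22 in every library, with log2 ratios of 0.48, 0.89 and 0.17 in NTC and 0.64 and 0.68 in sgJUN#1. RPS27L, a p53-responsive gene, and RPS27 had similar counts, with ratios of -0.08, 0.08 and 0.07 in NTC and -0.13 and 0.24 in sgJUN#1. RPL36AL lay just below RPL36A, with ratios of -0.31, -0.44 and -0.50 in NTC and -0.05 and -0.19 in sgJUN#1. Of the 6 pairs compared, only this had groups that did not overlap, and its mean ratio was 0.30 higher in sgJUN#1. The levels of RPL36AL and of RPL36A, each taken alone, overlapped between the groups. Among all tested genes 25.0% had levels that did not overlap, so this pair is not read as a result. RPL7L1 was far below RPL7 (ratios of -2.86 to -2.50 in NTC, -3.07 and -2.74 in sgJUN#1). RPL26L1 and RPL39L were lower still against RPL26 and RPL39, with ratios of -6.24 to -5.46 for RPL26L1 and -6.31 to -5.76 for RPL39L over all libraries. RPL3L, a muscle form, and RPL10L, a testis form, had 0 to 7 counts per library and were not compared. None of the 6 paralogs tested had an unadjusted p under 0.05 in edgeR. The genes they resemble have 17 (RPL26) to 61 (RPL7) annotated pseudogenes, and RPL36A shares reads with its readthrough locus. Reads placed on such copies can shift these ratios, and their part was not tested.

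**Figure D5:**
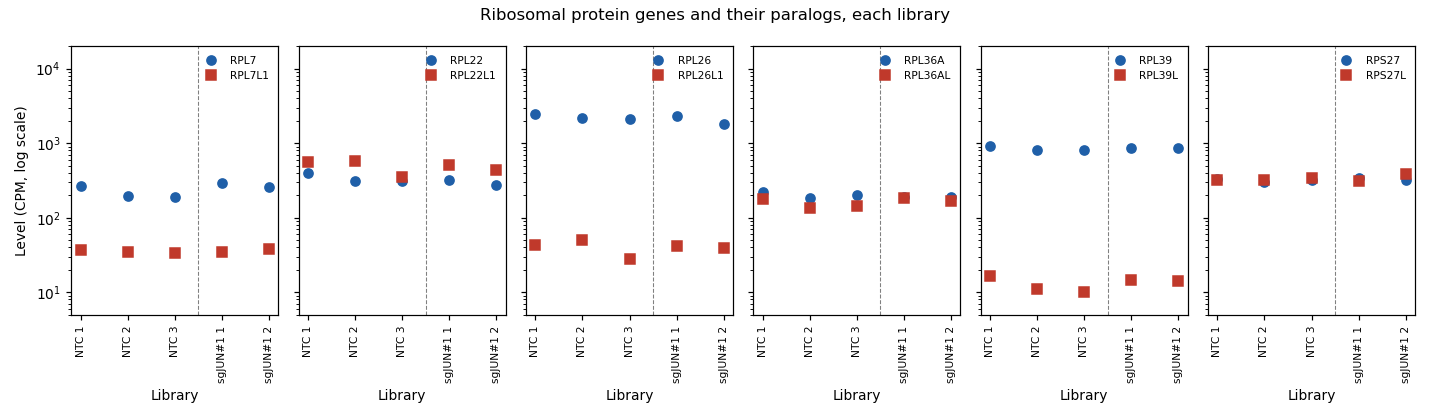
Level in CPM (y axis, log scale) of 6 ribosomal protein genes (blue circles) and their paralogs (red squares) in each library (x axis), with a dashed line between the NTC and sgJUN#1 libraries. RPL22L1 lies above RPL22 in all 5 libraries, and RPL26L1 and RPL39L lie far below RPL26 and RPL39.

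Promoter sequence was set beside the fold changes. The AP-1 element TGANTCA, searched on both strands of the 300 bases from 250 before to 50 after the start, was found in 2 of the 63 standard genes with an entry (3.17%), against 7.26% of all tested genes with one. The related CRE element TGACGTCA was found in 3 (4.76%, against 3.70%), and the TEAD element GGAATG in 5 (7.94%, against 15.3%). The ETS element CCGGAAG was found in 22 (34.9%, against 21.7%), CACGTG in 4 (6.35%, against 12.4%) and TATAAA in 5 (7.94%, against 9.17%). A gene with several entries counted if any of them held the element, and a match of letters is no measured binding site. The 47 genes with a tract that opened exactly at an annotated start had a median log2 fold change of 0.02. The 16 without a tract by that rule had one of -0.05. Over the 77 standard genes the log2 fold change had a Pearson r of 0.01 with transcript length and of -0.06 with transcript GC content.

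The lists of genes that work with ribosomal proteins held 0 called genes in edgeR. Since 0.206% of all tested genes were called, a count of 0 in lists of this size is not read as a result. Of 21 other 5′ TOP genes, which encode elongation and initiation factors and related proteins, the median log2 fold change was 0.01. HNRNPA1 (474, 424 and 465 CPM in NTC, 323 and 333 CPM in sgJUN#1) and NAP1L1 (1100, 957 and 1030 CPM, against 723 and 776 CPM) had the most negative values, -0.47 and -0.46, both with an edgeR adjusted p of 0.521. TPT1 had the most positive, 0.35. Of 37 ribosome assembly genes, 27 were positive, with a median of 0.13 that ranged from -0.08 (without sgJUN#1 replicate 1) to 0.29 (without sgJUN#1 replicate 2) with 1 library left out. The most positive values were those of RRS1 (0.59) and RRN3 (0.56, edgeR adjusted p = 0.479), the factor that brings RNA polymerase I to ribosomal DNA. Of 77 mitochondrial ribosomal protein genes, 51 were positive, with a median of 0.10 that ranged from -0.05 (without sgJUN#1 replicate 1) to 0.25 (without NTC replicate 1) and was -0.04 without NTC replicate 3. Their share of counts was 0.537% ± 0.079 (SD, n = 3) in NTC and 0.571% ± 0.044 (SD, n = 2) in sgJUN#1. Of 14 translation control genes, among them MYC, MTOR and LARP1, the median was -0.08, and MAF1, a repressor of RNA polymerase III, had the most negative value (-0.50, edgeR adjusted p = 0.560). The 13 host genes of small nucleolar RNAs had a median of -0.21, with SNHG3 (80.6, 75.3 and 84.3 CPM in NTC, 41.9 and 56.2 CPM in sgJUN#1) at -0.72 (edgeR adjusted p = 0.352).

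Several members overlap or closely resemble another gene of the table, and their counts can hold reads of both. RPL5 and DIPK1A lie on opposite strands at one locus, and DIPK1A had 102 to 104% of the counts of RPL5 in each library. RPL15 and NKIRAS1, also on opposite strands, stood at 102 to 103%. The counts of such pairs cannot be told apart. RPSA2 had 144 to 193% of the counts of RPSA, RPS18P9 had 38.7 to 56.0% of those of RPS18, RPS14P3 had 34.4 to 41.0% of those of RPS14, and RPS26P11 had 81.1 to 125% of those of RPS26. The readthrough loci had 124 to 142% of the counts of the ribosomal protein gene they contain. The levels of these genes, and the fold changes of RPSA and RPS18 among the extremes, are uncertain to that extent. When the counts of pseudogenes were added to their parent genes, the fold change of RPSA turned to 0.21, since the added counts include those of RPSAP52 (22, 44 and 25 in NTC, 197 and 165 in sgJUN#1), and that of RPL12 stayed at 0.39. The 28 ribosomal protein pseudogenes with a row in the count table took 0.132 to 0.135% of counts in NTC and 0.133 and 0.134% in sgJUN#1. The annotation holds many more, 133 for RPL21 alone. Reads on pseudogenes without a row are in neither this share nor the added counts.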

How the data were processed

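Libraries of MCF10A SAM cells (3 NTC, 2 sgJUN#1; groups from the sample titles) were made by the authors with the QuantSeq 3′ mRNA-Seq FWD kit. The authors deposited raw counts per gene, which had not been normalized. Their reads had been trimmed with cutadapt (4.2 in the submitters' processing notes), aligned to hg19 with Bowtie2 (2.3.5.1 in the same notes) at its defaults, which report 1 alignment for a read with several, and counted with countOverlaps. The gene annotation and the use of strand in counting were not given in the sources used here, so overlapping genes and near-identical copies can share counts. All 5 columns were matched to samples, with 0 left over. Symbols were found for 23308 of 23459 rows (99.36%) in RefSeq (GRCh38.p14). Of the 90 members, 53 overlapped another gene of the table, by position in the GENCODE annotation lifted to GRCh37.

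Counts were fitted with edgeR 4.0.16 (R 4.3.3; TMM, filterByExpr, robust quasi-likelihood F test, group as the only term), which tested 13616 genes and left out 9843, with Benjamini-Hochberg adjustment over all of them and a threshold of 0.05. The intervals are 95% intervals from that fit, and log2 CPM had a prior count of 2. Scripts were tested on simulated counts. The study used DESeq2. DESeq2 1.42.0, limma-voom (limma 3.58.1), other scalings, filters, thinned counts, a replicate block, leaving out each library and adding pseudogene counts were alternatives. Members, lists and tests were chosen with earlier results of these data known. Genes were named by a rule: JUN, any called member, the 5 members highest and the 5 lowest in fold change, the 5 most abundant, up to 10 with groups that did not overlap, paralog pairs, RPSA, RPLP0, RPLP1, RPLP2, FAU, RPL5, RPL11, RPS6 and RPS27A, and the extremes of each list. The remaining genes without overlap, the genes that share reads or have many pseudogenes and those with an unadjusted p under 0.05 without NTC replicate 1 were named after their values were seen. The smallest library held 2455627 counts, and depth limits cover counting error only. A few genes are not reported here by name and are not drawn gene by gene, but they remain in all fits, counts and medians.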

Additional observations from a re-analysis of the deposited data

How the results depend on the processing

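No ribosomal protein gene was called under any of the 16 alternatives to the fit. Their median log2 fold change stayed between -0.048 and 0.071, and without the readthrough rows or with the 77 standard genes alone, both chosen after seeing the data, it was 0.006 and -0.011. Counts of all genes called moved from 28 to 136 with DESeq2, to 148 with no filter, to 18 with at least 10 counts in every library, to 103 with the replicate block and to between 10 and 57 when 1 library was left out (10 without NTC replicate 1, 56 and 57 without NTC replicates 2 and 3). The difference between replicates 1 and 2 in NTC was set beside that in sgJUN#1. The correlation was 0.015 over all tested genes and -0.174 over the members. With so few libraries this cannot decide whether the replicate numbers pair the libraries. NTC replicate 3 has no partner, so the block in effect leaves it out, and the block gave a median of -0.045 for ribosomal protein genes, -0.001 for assembly and -0.042 for mitochondrial ribosomal protein genes. The difference in the RPS27L to RPS27 ratio ranged from -0.157 to 0.221 when 1 library was left out. Of 66 named genes, 50 kept their sign throughout. Under the block the sign turned for KRT5 (0.136), DCN (0.566), VWF (0.171), NEAT1 (0.327), RPS29 (-0.017), RPL39 (-0.008), RPL26L1 (-0.199) and RPS6 (-0.027). VWF also turned with DESeq2 (0.008), limma-voom (0.026) and RLE scaling (0.007), and RPL26L1 with thinned counts (-0.036). RPSA turned with pseudogene counts added (0.209), which include the higher sgJUN#1 counts of RPSAP52. Leaving out 1 library gave ranges across 0 for EIF4EBP1 (-0.058 to 0.646), KRT5 (-0.857 to 0.176), DCN (-0.747 to 0.614), VWF (-0.314 to 0.219), NEAT1 (-0.684 to 0.324), MALAT1 (-0.111 to 0.610), RPS29 (-0.174 to 0.192), RPL26 (-0.310 to 0.065), RPL39 (-0.009 to 0.074), RPL7L1 (-0.008 to 0.129), RPL22L1 (-0.254 to 0.053), RPL26L1 (-0.202 to 0.188), RPS27L (-0.070 to 0.238), RPLP2 (-0.088 to 0.041) and RPS6 (-0.046 to 0.163). The cause was not tested for these genes.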

Other observations

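One ribosomal protein pseudogene stood apart from the members. RPSAP52, a pseudogene of RPSA that lies antisense to HMGA2, a chromatin protein gene, had 22, 44 and 25 counts in NTC and 197 and 165 counts in sgJUN#1, with a log2 fold change of 2.41 ± 0.45 (SE) and an edgeR adjusted p of 0.108. HMGA2 itself had 200, 897 and 204 CPM across the NTC libraries, against 690 and 1195 CPM after JUN activation (log2 fold change 1.12 ± 0.72, SE, edgeR adjusted p = 0.744). In both genes NTC replicate 2 was the highest NTC library. Since the use of strand in counting was not given, reads of RPSAP52 and HMGA2 cannot be told apart where they overlap. Of the 19 tested pseudogenes of ribosomal proteins, only RPSAP52 had an unadjusted p under 0.05 in edgeR, against 8.38% of all tested genes. Of the 19, 0 were called, against 0.206% of all tested genes. Neither count is read as a result about pseudogenes.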
